A study of Mus musculus with 16 samples.

Results

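The genes described are 10 regulators of the G1 phase of the cell cycle: the D-type cyclins Ccnd1, Ccnd2 and Ccnd3, the E-type cyclins Ccne1 and Ccne2, the kinase Cdk6, the CIP/KIP inhibitors Cdkn1a, Cdkn1b and Cdkn1c, and Rb1. They were taken by symbol from a count table of 34042 genes. All 10 were found, and all 10 were among the 18555 genes kept for testing by a filter on low counts. The counts came from bulk RNA-seq of cultured mouse pluripotent lines, 16 libraries in all. The formative stem cells (FS) grew in A3XR medium and had 6 libraries, from line 5ar1 at passages 10, 12 and 14 and from line 5ar3 at passages 4, 5 and 12. Epiblast stem cells in AF medium (EpiSC_AF) gave 3 libraries of line AF32, at passages 13, 14 and 15. Epiblast stem cells in AFX medium (EpiSC_AFX) gave 3 libraries of line AFX6, at passages 5, 8 and 12. Embryonic stem cells (ES) in 2iL medium gave 4 libraries of line E14IV-C, at passages 12, 13, 15 and 20. Genotype and strain are not given in the sources used here. Outside FS each medium is represented by 1 line, so line and medium cannot be told apart, and the libraries of a line are passages of one culture. The p-values therefore measure the spread between passages. In the comparisons between groups FS has 1 mean, so the spread also holds the difference between lines 5ar1 and 5ar3. It is estimated over all 16 libraries.

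The passage through G1 is controlled by cyclins and by the proteins that hold their kinases back. D-type cyclins activate CDK4 and CDK6, which phosphorylate the retinoblastoma protein encoded by Rb1 and so release E2F transcription factors, and E-type cyclins then act with CDK2 to bring the cell into S phase. The CIP/KIP inhibitors bind cyclin-CDK complexes, whereas the INK4 inhibitors bind CDK4 and CDK6 directly.

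Total counts in units of 1e+06 ranged from 22.1 to 28.1 in FS, 27.2 to 32.04 in EpiSC_AF, 25.7 to 33.3 in EpiSC_AFX and 23.1 to 24.6 in ES. The ES library at passage 12 stood apart, with 38.1% of its counts on the mitochondrial rRNA gene mt-Rnr2 against at most 18.97% in the other ES libraries. Levels are given as CPM (counts per 1e+06 counts) after TMM scaling, which corrects the library total for such genes. The 5 naive markers checked (Zfp42, Esrrb, Klf4, Tfcp2l1 and Nr0b1) summed to at least 2142 CPM in ES and at most 12.6 CPM in the other libraries. The 4 formative and primed markers (Otx2, Fgf5, Pou3f1 and Dnmt3b) summed to at most 103 CPM in ES and at least 834 CPM elsewhere, so these markers set ES apart as labelled. Both sums overlapped between FS, EpiSC_AF and EpiSC_AFX, so they do not tell those labels apart. All 7 fibroblast markers checked were found, and their sum was 0.587 to 1.11 CPM in ES, with Dcn at 0 in every ES library. It was 17.3 to 34.4 CPM in FS, 32.98 to 79.4 CPM in EpiSC_AF and 12.3 to 20.4 CPM in EpiSC_AFX. These markers did not move as one between the groups. Thy1 had 7.58 to 19.4 CPM in FS but 0.743 to 1.25 CPM in EpiSC_AF. Col1a1, Col1a2, Col3a1 and Postn were higher in EpiSC_AF than in FS, Dcn overlapped, and Lum had at most 0.131 CPM in any group. Other marker sums also moved with the comparisons with ES. The 5 endoderm markers summed to 2.26 to 3.04 CPM in ES and 61.0 to 181 CPM in EpiSC_AF, and the 3 mesoderm markers to 3.93 to 12.99 CPM in ES and 34.1 to 137 CPM in EpiSC_AF. Of that mesoderm sum in EpiSC_AF, 33.3 to 136 CPM came from T. Mesp1 and Tbx6 had at most 0.327 and 0.981 CPM there. The 3 neural markers summed to 1.17 to 3.15 CPM in ES, 4.21 to 37.4 CPM in FS and 4.42 to 13.2 CPM in EpiSC_AF. The 4 trophoblast markers summed to 46.4 to 65.3 CPM in ES, and their sum was lower in FS (15.97 to 46.02 CPM) and EpiSC_AFX (14.1 to 23.6 CPM). Elf5 was at 0 in all libraries of these 3 groups, and Cdx2 had at most 0.775 CPM. The other markers went opposite ways. Tfap2c had 44.2 to 61.9 CPM in ES and at most 1.22 in FS and 2.46 in EpiSC_AFX. Eomes had 1.66 to 4.72 CPM in ES, 15.5 to 45.3 in FS and 13.1 to 21.1 in EpiSC_AFX. The part of such RNA in the comparisons with ES was not tested. In bulk RNA, fewer cells that express a gene and less RNA per cell cannot be told apart.

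In each of the comparisons of FS, EpiSC_AF and EpiSC_AFX with ES, Ccnd2, Cdkn1c, Cdk6 and Rb1 were higher and Ccnd3 and Cdkn1a were lower (edgeR quasi-likelihood test, Benjamini-Hochberg adjusted p under 0.05 over all genes tested). Ccnd1, Ccne1, Ccne2 and Cdkn1b were not called in any of the 3. These comparisons share the 4 ES libraries. In FS against ES 6 of 10 members were called, and 62.8% of all genes tested were called, 32.9% higher and 29.9% lower. Of all genes, 56.7% were called in EpiSC_AF against ES (29.7% higher, 27.0% lower) and 54.7% in EpiSC_AFX against ES (28.5% higher, 26.2% lower). The members' share of calls was thus near the background, and the results below concern which members moved and how far. The median log2 fold change of the members was 0.32 in FS, 0.39 in EpiSC_AF and 0.45 in EpiSC_AFX, each against ES, beside 0.04, 0.01 and 0.01 for all genes tested. Without the ES library at passage 12, 7 members were called in each comparison with ES, since Ccne2 joined in all 3 and, in FS against ES, Ccnd1 was called and Cdk6 was not. At this setting 61.7% of all genes tested were called in FS, 56.6% in EpiSC_AF and 54.5% in EpiSC_AFX, each against ES. With library totals in place of TMM the median of all genes rose by 0.36 in FS against ES, and 5 members were called higher and 2 lower against ES in each group, beside 60.7% of all genes in FS, 52.9% in EpiSC_AF and 50.7% in EpiSC_AFX. The share of higher genes among all calls moved with it, from 52.4% to 70.5% in FS, from 52.4% to 66.3% in EpiSC_AF and from 52.0% to 64.7% in EpiSC_AFX.

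**Figure D1:**
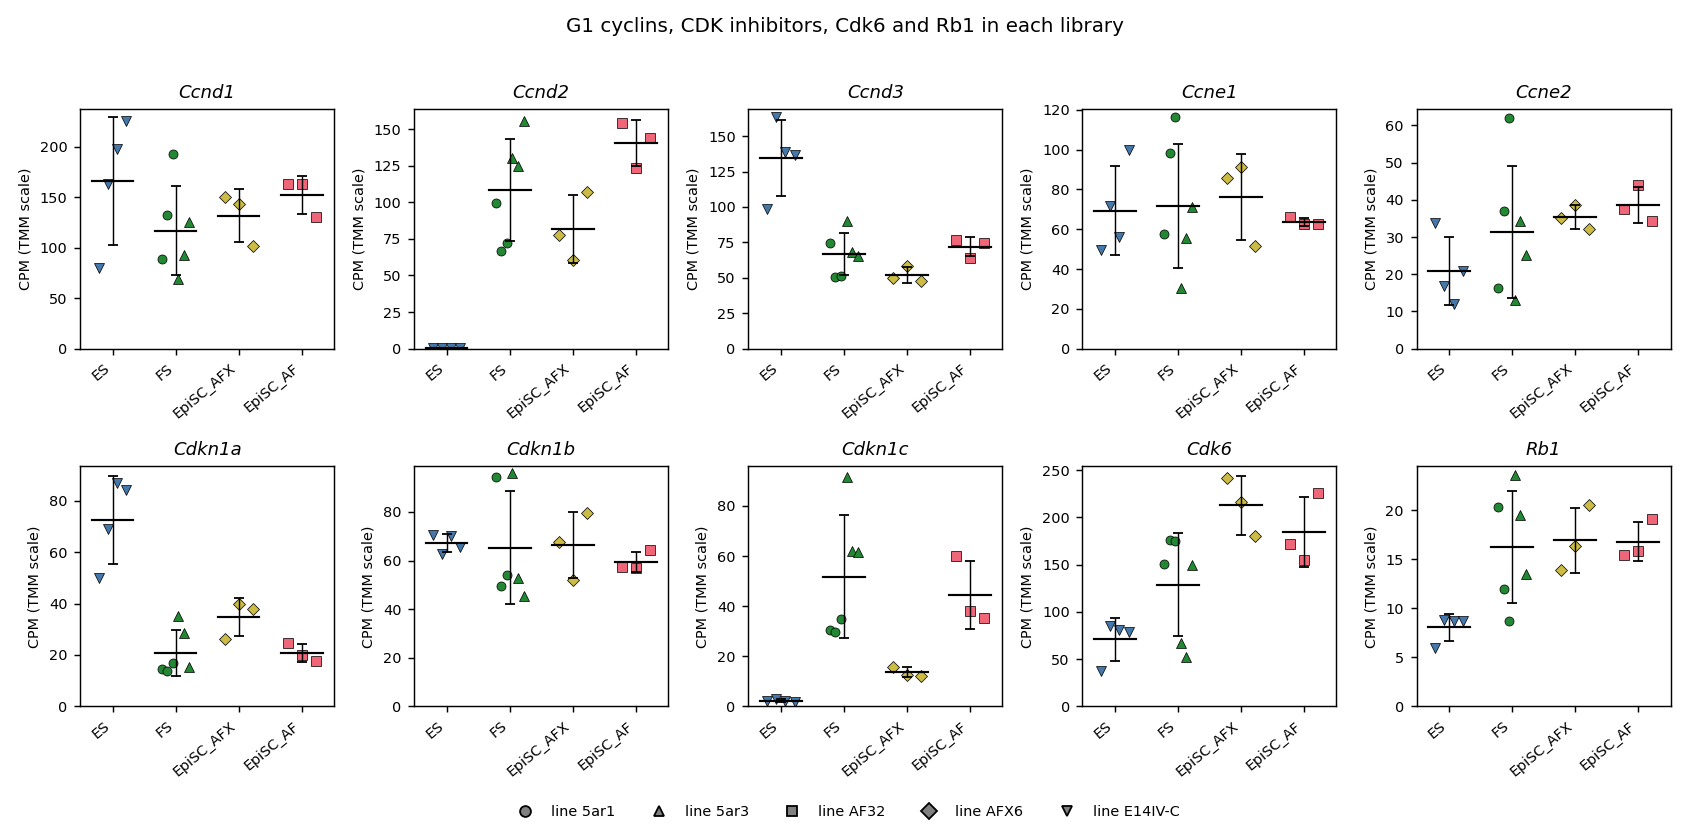
CPM on the TMM scale (linear axis from 0) of each of the 10 members in the 16 libraries, 1 panel a gene, with a point for each library (its shape shows the line), a horizontal bar at each group mean and error bars of 1 SD. Ccnd2 lay below 1 CPM in the 4 ES libraries and above 60 CPM in the other 12, and Cdkn1c shows EpiSC_AFX between ES and the other groups.

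Ccnd2 encodes a D-type cyclin and lies at chr6:127125162-127152193 on the minus strand (coordinates of the members are those of GENCODE M21 on GRCm38). In ES it had 0.415, 0.631, 0.775 and 0.425 CPM at passages 12, 13, 15 and 20, from only 6 to 17 counts a library. FS libraries ranged from 66.9 to 155 CPM with a median of 112 CPM. EpiSC_AF had 154, 124 and 144 CPM at passages 13, 14 and 15, and EpiSC_AFX had 77.6, 60.7 and 107 CPM at passages 5, 8 and 12. No library of these groups came near the ES range. In FS the log2 fold change against ES was 7.56 (SE 0.34, edgeR adjusted p = 9.44e-12), in EpiSC_AF 7.93 (SE 0.36, adjusted p = 2.41e-11) and in EpiSC_AFX 7.15 (SE 0.35, adjusted p = 5.76e-11). It was the widest difference among the members in each of these 3 comparisons.

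Ccnd3, another D-type cyclin gene, at chr17:47505051-47599691 on the plus strand, went the other way. It had 98.6, 164, 139 and 137 CPM in ES at passages 12, 13, 15 and 20. FS libraries had 50.7 to 89.8 CPM with a median of 66.7 CPM. EpiSC_AF had 76.8, 64.3 and 74.8 CPM at passages 13, 14 and 15, and EpiSC_AFX had 49.6, 58.1 and 47.6 CPM at passages 5, 8 and 12. Every ES library was above every other library, also the one at passage 12, which was the lowest of the 4. The log2 fold change of Ccnd3 against ES in edgeR was -1.01 in FS (SE 0.16, adjusted p = 3.41e-05), -0.90 in EpiSC_AF (SE 0.20, adjusted p = 0.000873) and -1.38 in EpiSC_AFX (SE 0.20, adjusted p = 1.83e-05).

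Ccnd1, at chr7:144929931-144939925 on the minus strand, encodes the D-type cyclin best known as a target of growth factor signalling. Its levels were 79.6, 163, 198 and 226 CPM in ES at passages 12, 13, 15 and 20, and FS libraries ranged from 69.0 to 193 CPM with a median of 109 CPM. EpiSC_AF had 163, 163 and 131 CPM at passages 13, 14 and 15, and EpiSC_AFX had 150, 144 and 102 CPM at passages 5, 8 and 12. All groups overlapped with ES. For EpiSC_AFX this rested on the ES library at passage 12, since the other ES libraries had 163 to 226 CPM. Apart from that library, the highest EpiSC_AF library (163.4 CPM) just passed the lowest ES library (162.9 CPM). The log2 fold change against ES was -0.51 in FS (SE 0.27, edgeR adjusted p = 0.110), -0.13 in EpiSC_AF and -0.34 in EpiSC_AFX. In FS the result depended on single libraries and on the line: Ccnd1 was called lower without the ES library at passage 12 (log2 fold change -0.75, adjusted p = 0.0128), without line 5ar1 at passage 14 (-0.71, adjusted p = 0.0185), and with line 5ar3 as the only FS line (-0.79, adjusted p = 0.0293).

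Levels of different genes were compared per kilobase of merged exons. This length pools the exons of all annotated transcripts of a gene. It was 4.709 kb for Ccnd1, 9.409 kb for Ccnd2 and 8.775 kb for Ccnd3. Shares and orders here and below depend on it, and the lengths of the transcripts present were not measured. Per kilobase, Ccnd1 gave 68.2% ± 7.07 (SD, n = 4) of the summed D-type cyclin transcripts in ES and Ccnd3 31.7% ± 7.04, while Ccnd2 gave 0.124% ± 0.0374. In FS the shares were 55.4% ± 13.9 for Ccnd1, 26.7% ± 8.95 for Ccnd2 and 17.9% ± 5.83 for Ccnd3 (SD, n = 6). With this length, Ccnd1 was the leading D-type cyclin gene by mean share in ES and in FS, and the second place went from Ccnd3 in ES to Ccnd2 in FS. In EpiSC_AF the shares were 58.2% ± 4.47, 27.0% ± 2.89 and 14.8% ± 1.61 in the same order, and in EpiSC_AFX 65.3% ± 7.82, 20.8% ± 7.78 and 13.9% ± 1.45 (SD, n = 3 each). The sum over the 3 genes was 50.7 ± 15.6 CPM per kilobase in ES (SD, n = 4) and 43.9 ± 6.87 in FS (SD, n = 6). It was 55.5 ± 4.13 in EpiSC_AF and 42.6 ± 3.80 in EpiSC_AFX (SD, n = 3 each). The single libraries of FS and of EpiSC_AF lay within the range of ES, 28.2 to 63.6 CPM per kilobase, as did those of EpiSC_AFX. The low end of that range was the ES library at passage 12 alone. The ES libraries at passages 13, 15 and 20 had 53.3, 57.9 and 63.6 CPM per kilobase. All EpiSC_AFX libraries (38.4 to 45.8) lay below these values, while FS ranged from 38.0 to 54.5.

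**Figure D2:**
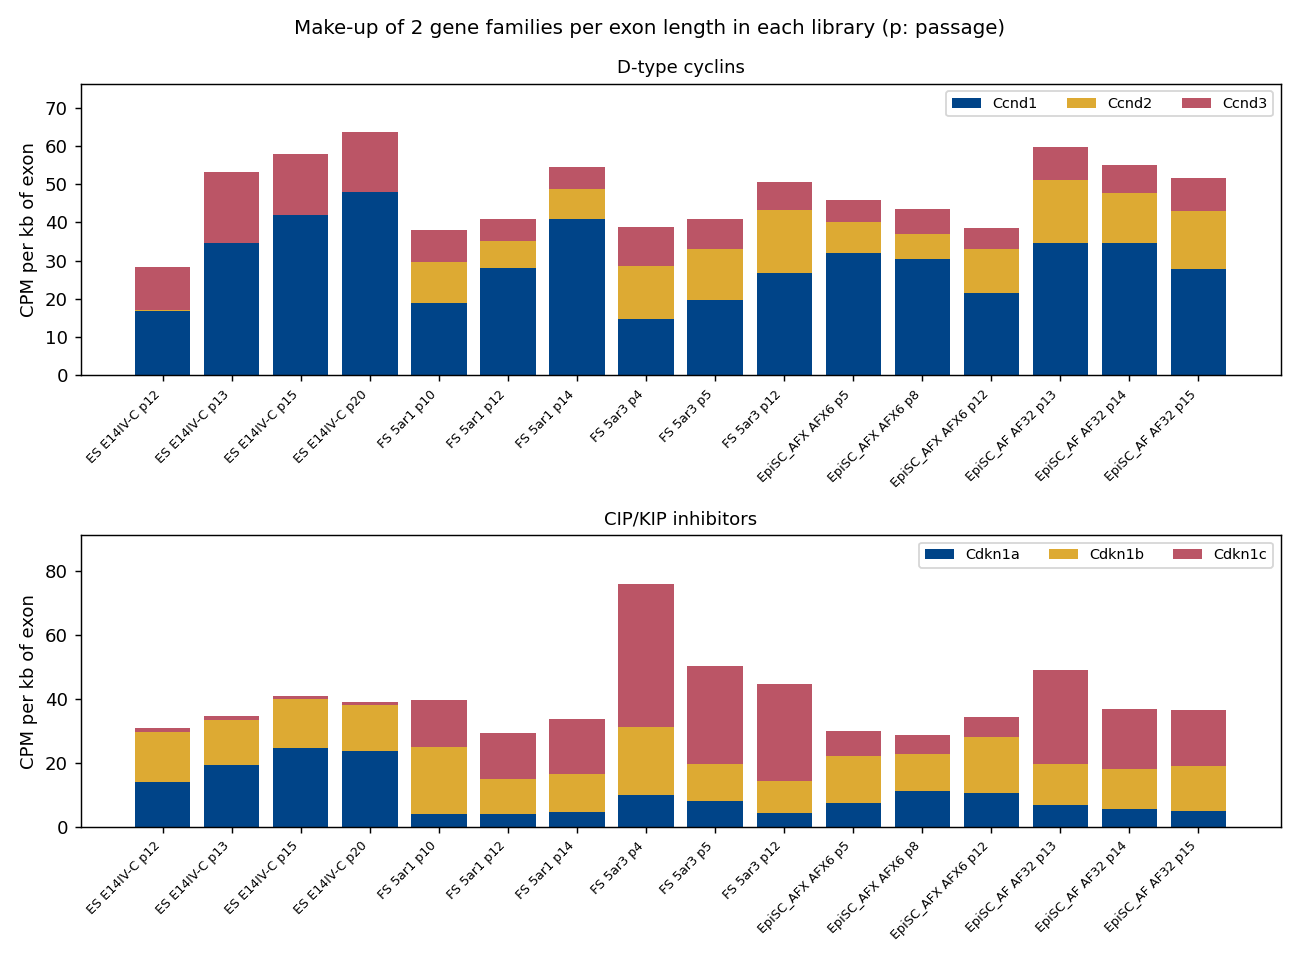
Stacked bars of CPM per kilobase of exon for each library, with the D-type cyclins in the upper panel, the CIP/KIP inhibitors in the lower one, and the libraries in the group order ES, FS, EpiSC_AFX, EpiSC_AF. Ccnd2 is too small to be seen in the ES bars (mean share 0.124%), and Cdkn1c takes 3.13% of the CIP/KIP sum in ES against 54.3% in FS.

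The E-type cyclin genes, whose proteins activate CDK2, were Ccne1 at chr7:38097984-38107534 on the minus strand and Ccne2 at chr4:11191351-11204779 on the plus strand. Ccne1 had 49.7, 71.5, 55.9 and 99.9 CPM in ES at passages 12, 13, 15 and 20, and 30.7 to 116 CPM in FS with a median of 64.4 CPM. It had 65.99, 62.8 and 62.6 CPM in EpiSC_AF at passages 13, 14 and 15, and 85.7, 91.4 and 51.7 CPM in EpiSC_AFX at passages 5, 8 and 12. All groups overlapped, and over the 6 comparisons between groups its log2 fold change stayed between -0.12 and 0.26 (lowest edgeR adjusted p = 0.754). Within a line, the ratio of the highest to the lowest level was 2.01 in 5ar1 and 2.31 in 5ar3.

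Ccne2 had 33.7, 16.8, 12.1 and 21.0 CPM in ES at passages 12, 13, 15 and 20. FS libraries ranged from 13.1 to 62.02 CPM with a median of 29.8 CPM, EpiSC_AF had 37.5, 44.0 and 34.4 CPM at passages 13, 14 and 15, and EpiSC_AFX had 35.2, 38.7 and 32.1 CPM at passages 5, 8 and 12. Both EpiSC groups were thus above 3 of the 4 ES libraries, and EpiSC_AF was above all of them. The log2 fold change was 0.59 in FS (SE 0.35, edgeR adjusted p = 0.155), 0.89 in EpiSC_AF (SE 0.41, adjusted p = 0.0704) and 0.76 in EpiSC_AFX (SE 0.41, adjusted p = 0.122), each against ES. Without the ES library at passage 12 these became 0.91 (adjusted p = 0.0444), 1.22 (adjusted p = 0.0201) and 1.09 (adjusted p = 0.0357), and with library totals in place of TMM Ccne2 was also called higher in all 3. Per kilobase, Ccne1 gave the larger share of E-type cyclin transcripts in every library, with group means of 80.7% in ES, 75.6% in FS, 73.2% in EpiSC_AFX and 68.5% in EpiSC_AF.

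Cdk6, the kinase partner of the D-type cyclins, lies at chr5:3341485-3531008 on the plus strand. ES libraries had 37.5, 85.2, 80.9 and 79.1 CPM at passages 12, 13, 15 and 20. In FS, line 5ar1 had 151, 176 and 175 CPM at passages 10, 12 and 14, and line 5ar3 had 67.3, 52.4 and 150 CPM at passages 4, 5 and 12. EpiSC_AF had 171, 155 and 226 CPM at passages 13, 14 and 15, and EpiSC_AFX had 242, 216 and 180 CPM at passages 5, 8 and 12. Both EpiSC groups lay above all ES libraries, while in FS the early passages of 5ar3 lay within the ES range. The low end of that range was the ES library at passage 12 alone. The early passages of 5ar3 lay below the ES libraries at passages 13, 15 and 20. The log2 fold change against ES was 1.38 in EpiSC_AF (SE 0.36, edgeR adjusted p = 0.00351) and 1.59 in EpiSC_AFX (SE 0.36, adjusted p = 0.00128). In FS it was 0.86 (SE 0.31, adjusted p = 0.0242), and this call ended with 5ar3 as the only FS line (0.36, adjusted p = 0.356), without the ES library at passage 12 (0.65, adjusted p = 0.0868), without 5ar1 at passage 12 (0.75, adjusted p = 0.0512) and with no low-count filter (adjusted p = 0.0632). Cdk4, the other kinase of the D-type cyclins, had 390 CPM in ES (SD 24.02, n = 4), against 368 ± 46.3 CPM in FS (SD, n = 6), and was not called (log2 fold change -0.08, SE 0.11, edgeR adjusted p = 0.525).

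Rb1, which encodes the retinoblastoma protein, lies at chr14:73183673-73325822 on the minus strand. It had 5.94, 8.85, 8.70 and 8.72 CPM in ES at passages 12, 13, 15 and 20. In FS, line 5ar1 had 20.4, 11.95 and 8.73 CPM at passages 10, 12 and 14, and line 5ar3 had 23.6, 19.5 and 13.6 CPM at passages 4, 5 and 12. EpiSC_AF had 15.4, 15.9 and 19.1 CPM at passages 13, 14 and 15, and EpiSC_AFX had 13.9, 16.3 and 20.5 CPM at passages 5, 8 and 12. Both EpiSC groups lay above all ES libraries, and in FS 5ar1 at passage 14 lay within the ES range. The log2 fold change against ES was 1.01 in FS (SE 0.24, edgeR adjusted p = 0.00165), 1.05 in EpiSC_AF (SE 0.28, adjusted p = 0.00371) and 1.07 in EpiSC_AFX (SE 0.28, adjusted p = 0.00360). With passage as a covariate the difference in EpiSC_AFX was 0.82 (adjusted p = 0.0501) and missed the threshold.

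Of the CIP/KIP inhibitors, Cdkn1a, which encodes p21 and lies at chr17:29090976-29100727 on the plus strand, was highest in ES. Its levels there were 49.96, 69.1, 86.9 and 84.3 CPM at passages 12, 13, 15 and 20. In FS it had 13.9 to 35.3 CPM with a median of 16.03 CPM, in EpiSC_AF 24.5, 20.003 and 17.7 CPM at passages 13, 14 and 15, and in EpiSC_AFX 26.2, 39.8 and 38.0 CPM at passages 5, 8 and 12. No library of the other groups reached the lowest ES library. The edgeR log2 fold change against ES was -1.81 in FS (SE 0.25, adjusted p = 8.60e-06), -1.81 in EpiSC_AF (SE 0.32, adjusted p = 0.000132) and -1.07 in EpiSC_AFX (SE 0.31, adjusted p = 0.00790).

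Cdkn1a and Ccnd3 were the members that fell in all 3 comparisons with ES, and the 250 bases before each of their RefSeq starts are shown for that reason, on the plus strand of GRCm38.p6. The Cdkn1a windows are chr17:29090729-29090978 and chr17:29093519-29093768, and the Ccnd3 windows are chr17:47504801-47505050 and chr17:47593217-47593466. Capitals mark a p53 element in the first window and GC boxes (GGGCGG or its reverse complement) in the other windows.
Cdkn1a, first start: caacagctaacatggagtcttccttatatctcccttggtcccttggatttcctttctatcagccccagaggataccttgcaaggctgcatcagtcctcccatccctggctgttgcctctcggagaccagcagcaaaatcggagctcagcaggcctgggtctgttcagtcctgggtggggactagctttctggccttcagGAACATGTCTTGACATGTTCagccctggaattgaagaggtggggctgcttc
Cdkn1a, second start: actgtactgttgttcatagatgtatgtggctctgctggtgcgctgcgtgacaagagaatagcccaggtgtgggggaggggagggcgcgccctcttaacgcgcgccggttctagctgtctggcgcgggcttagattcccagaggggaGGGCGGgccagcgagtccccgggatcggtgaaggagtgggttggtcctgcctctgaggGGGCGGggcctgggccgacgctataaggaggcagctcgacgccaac
Ccnd3, first start: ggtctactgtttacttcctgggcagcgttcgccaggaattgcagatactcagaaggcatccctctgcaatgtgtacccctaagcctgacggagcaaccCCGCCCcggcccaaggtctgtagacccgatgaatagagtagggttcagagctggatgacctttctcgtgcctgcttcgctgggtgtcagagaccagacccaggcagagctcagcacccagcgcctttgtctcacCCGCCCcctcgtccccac
Ccnd3, second start: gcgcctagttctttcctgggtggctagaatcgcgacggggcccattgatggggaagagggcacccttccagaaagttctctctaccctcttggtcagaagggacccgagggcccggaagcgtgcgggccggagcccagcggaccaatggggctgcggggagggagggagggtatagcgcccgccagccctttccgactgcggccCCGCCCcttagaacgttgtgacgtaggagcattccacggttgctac
The p53 element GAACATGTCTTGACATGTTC, at chr17:29090928-29090947, spans 51 to 32 bases before the first start of Cdkn1a, a textbook target of p53. It differs by 1 letter from the consensus of joined half-sites, and it was looked for after these letters had been seen. A match with at most 1 mismatch was present in 25 of 32817 windows of the same length (0.0762%). Both Ccnd3 windows and the second Cdkn1a window hold GC boxes, which 32.7% of all windows hold. Of the 10 members, 5 had an entry (7 windows), and no E2F site (TTTGGCGC, TTTCCCGC, TTTCGCGC or TTTGCCGC on either strand) was in these windows, against 1.86% of all windows. Among the other matched members Ccne1 held 4 GC boxes and Cdkn1b 1, and Cdk6 held a TATA box (TATAAA, in 12.4% of all windows) and an E-box (CACGTG, in 6.02%). Such matches describe the letters only.

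Cdkn1c encodes p57 and is an imprinted gene, at chr7:143458339-143461050 on the minus strand. ES libraries had 2.28, 3.07, 2.05 and 1.66 CPM at passages 12, 13, 15 and 20, from 33 to 68 counts. In FS, line 5ar1 had 30.5, 29.7 and 35.0 CPM at passages 10, 12 and 14, and line 5ar3 had 91.4, 62.2 and 61.7 CPM at passages 4, 5 and 12. EpiSC_AF had 60.0, 38.2 and 35.4 CPM at passages 13, 14 and 15, and EpiSC_AFX had only 15.8, 12.5 and 12.3 CPM at passages 5, 8 and 12. The groups thus lay in the order ES, EpiSC_AFX and then EpiSC_AF with FS, and those last groups overlapped. In edgeR the log2 fold change against ES was 4.51 in FS (SE 0.37, adjusted p = 1.04e-08), 4.30 in EpiSC_AF (SE 0.38, adjusted p = 5.57e-08) and 2.58 in EpiSC_AFX (SE 0.37, adjusted p = 1.50e-05).

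Cdkn1b, which encodes p27 and lies at chr6:134920401-134925513 on the plus strand, was not called in any of the 6 comparisons between groups. It had 70.7, 62.9, 70.0 and 65.6 CPM in ES at passages 12, 13, 15 and 20, and 45.6 to 96.1 CPM in FS with a median of 53.3 CPM. EpiSC_AF had 57.5, 56.9 and 64.3 CPM at passages 13, 14 and 15, and EpiSC_AFX had 67.4, 52.2 and 79.5 CPM at passages 5, 8 and 12. All groups overlapped with ES, and over the 6 comparisons between groups the log2 fold change lay between -0.18 and 0.16 (lowest edgeR adjusted p = 0.554). The highest FS libraries were the earliest passage of each line, 5ar1 at passage 10 and 5ar3 at passage 4.

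Per kilobase of exon, the order of the CIP/KIP inhibitors differed between the groups. In ES, Cdkn1a gave 55.6% ± 6.90 of their summed transcripts, Cdkn1b 41.2% ± 6.33 and Cdkn1c 3.13% ± 1.04 (SD, n = 4). In FS, Cdkn1c gave 54.3% ± 10.6, Cdkn1b 32.9% ± 11.2 and Cdkn1a 12.7% ± 2.39 (SD, n = 6), and EpiSC_AF had 52.8% ± 6.50, 32.8% ± 6.55 and 14.3% ± 0.835 in the same order (SD, n = 3). In EpiSC_AFX the order was another: Cdkn1b gave 46.8% ± 6.13, Cdkn1a 31.6% ± 7.13 and Cdkn1c 21.6% ± 4.15 (SD, n = 3). The sum of the family was 36.3 ± 4.53 CPM per kilobase in ES (SD, n = 4), 45.6 ± 16.6 in FS (SD, n = 6), 40.7 ± 7.10 in EpiSC_AF and 31.0 ± 2.83 in EpiSC_AFX (SD, n = 3 each). The ranges of the sum overlapped between ES and every other group. For EpiSC_AFX (28.8 to 34.2 CPM per kilobase) this rested on the ES library at passage 12, at 30.7. The ES libraries at passages 13, 15 and 20 had 34.8, 40.9 and 39.0.

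**Figure D3:**
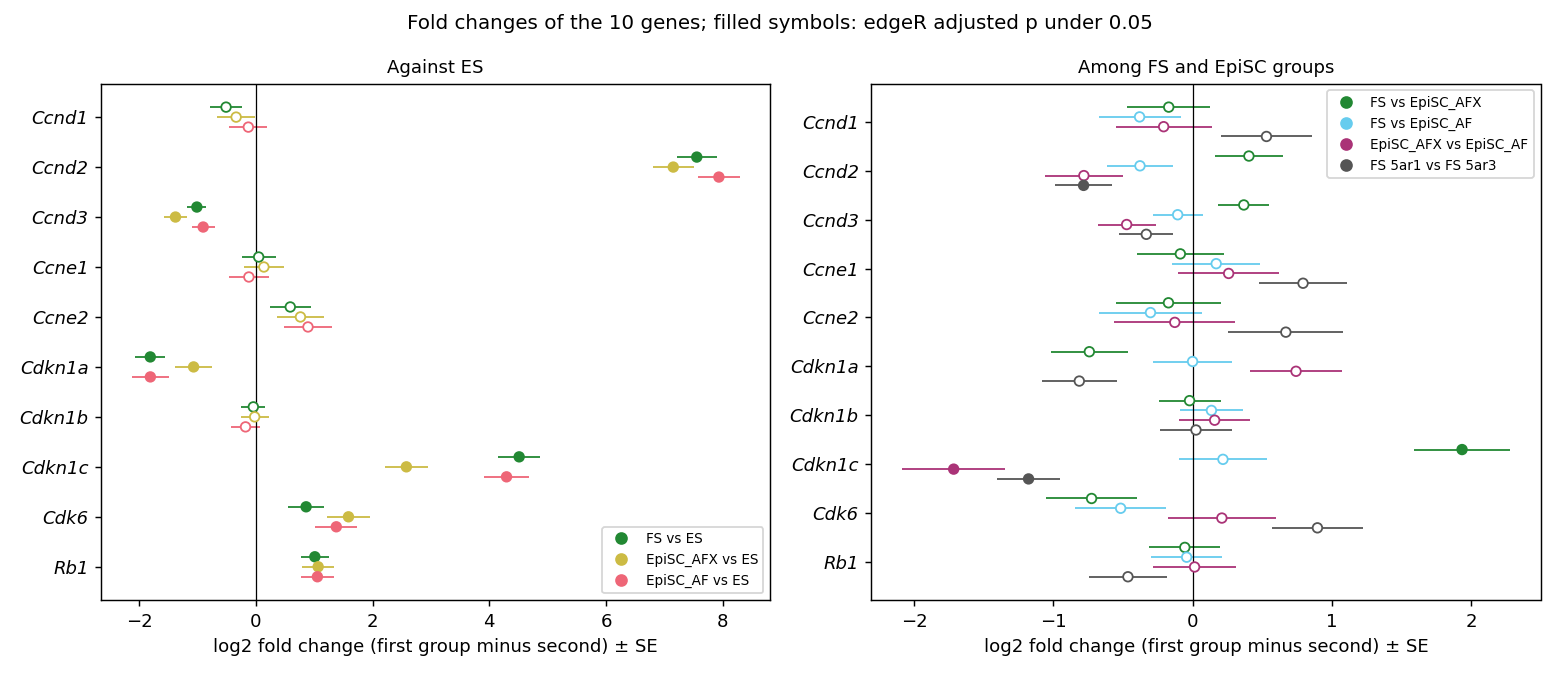
Log2 fold change of each member (x axis) in the comparisons with ES (left panel) and between the other groups and the FS lines (right panel, on its own scale), with bars of 1 SE and filled points for an edgeR adjusted p under 0.05. Ccnd2 (7.15 to 7.93) and Cdkn1c (2.58 to 4.51) stand farthest to the right against ES, and the filled points in the comparisons without ES are those of Cdkn1c and, between the FS lines, Ccnd2.

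Cdkn1c lies in an imprinted domain whose noncoding RNA Kcnq1ot1 is transcribed from the paternal copy, where it silences Cdkn1c. Kcnq1ot1 had 87.6, 118, 115 and 150 CPM in ES at passages 12, 13, 15 and 20. It had 0.102 to 1.44 CPM in FS, 0.0964 to 0.283 CPM in EpiSC_AF and 0.0678 to 0.321 CPM in EpiSC_AFX, from at most 39 counts in any of these libraries. It was lower than in ES in FS (edgeR adjusted p = 1.62e-10), EpiSC_AF (adjusted p = 5.03e-09) and EpiSC_AFX (adjusted p = 5.48e-09), and Cdkn1c was higher than in ES in each of them. No fold is given for a gene and group in which a library held 3 counts or fewer, as here (lowest counts 3, 3 and 2). EpiSC_AFX and EpiSC_AF both lay at or under 0.321 CPM of Kcnq1ot1, from 2 to 9 counts a library, and differed in Cdkn1c. Counts this low cannot show whether Kcnq1ot1 differed between them, and its part in the Cdkn1c levels was not tested. Kcnq1ot1 overlaps Kcnq1 on the opposite strand and the strand setting of the counting is not given in the sources used here, so its counts are uncertain. Of the 7 genes of the domain listed, Ascl2, a trophoblast factor gene also expressed elsewhere, was higher in FS than in ES (log2 fold change 3.03, SE 0.32, edgeR adjusted p = 2.48e-07). In each of the 3 comparisons with ES 2 of the 7 were higher and 3 lower.

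Of the INK4 inhibitors, which block CDK4 and CDK6, Cdkn2a and Cdkn2b were lower in FS than in each other group. Cdkn2a, which encodes p16 and p19ARF, had 13.1, 15.5, 19.1 and 22.9 CPM in ES at passages 12, 13, 15 and 20. In FS it had between 0 and 5 counts in a library, at most 0.169 CPM. EpiSC_AF had 25 to 91 counts (0.885 to 2.93 CPM) and EpiSC_AFX 8 to 55 counts (0.271 to 1.86 CPM), so the FS libraries lay below all others. Cdkn2a was lower in FS than in ES (edgeR adjusted p = 2.71e-09), EpiSC_AF (adjusted p = 3.80e-05) and EpiSC_AFX (adjusted p = 0.00312), and no fold is given by the same rule. Cdkn2b, which encodes p15, had 0.190 to 0.630 CPM in FS, 1.80 to 3.49 CPM in ES, 2.02 to 4.02 CPM in EpiSC_AF and 1.32 to 2.97 CPM in EpiSC_AFX. In edgeR its log2 fold change in FS was -2.60 against ES (SE 0.36, adjusted p = 6.56e-06), -2.91 against EpiSC_AF (SE 0.37, adjusted p = 5.09e-05) and -2.31 against EpiSC_AFX (SE 0.38, adjusted p = 0.00161). All 4 INK4 genes were lower in FS than in ES (median log2 fold change -1.91, 3 of 4 with library totals in place of TMM), and 2 of 4 in EpiSC_AF and in EpiSC_AFX against ES.

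**Figure D4:**
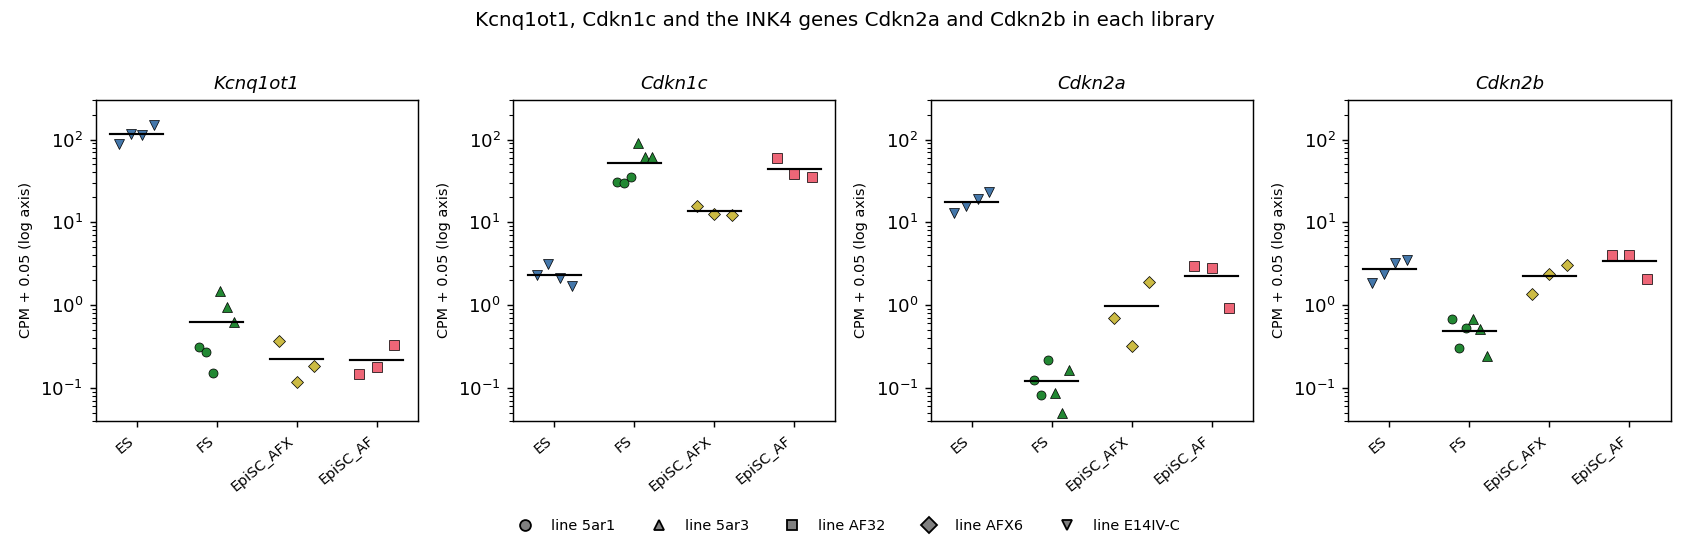
CPM on the TMM scale plus 0.05 (log axis) of Kcnq1ot1, Cdkn1c, Cdkn2a and Cdkn2b in the 16 libraries, with a point for each library (its shape shows the line) and a bar at each group mean. Before 0.05 is added, Kcnq1ot1 lies at 87.6 to 150 CPM in ES and at most 1.44 CPM elsewhere, and the FS libraries are the lowest for Cdkn2a (at most 0.169 CPM) and Cdkn2b (at most 0.630 CPM).

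Members were next compared between FS and the EpiSC groups. No member was called in FS against EpiSC_AF, where 16.6% of all genes were called (7.84% higher and 8.81% lower), and no member had an unadjusted edgeR p under 0.05. The DESeq2 Wald test also called 0 members, which is not read as a result because its share over all genes is not given here. The log2 fold changes of the 10 members lay between -0.52 for Cdk6 and 0.22 for Cdkn1c, and the libraries of the groups overlapped for all 10, while those of 20.4% of all genes did not. In FS against EpiSC_AFX 1 of 10 members was called, where 5.00% of all genes were called, 2.89% higher and 2.10% lower. This was Cdkn1c, higher in all 6 FS libraries than in any EpiSC_AFX library, and the log2 fold change was 1.93 (SE 0.34, adjusted p = 0.00317 in edgeR). Cdk6 also did not overlap, being higher in EpiSC_AFX, but was not called (log2 fold change -0.73, SE 0.33, adjusted p = 0.242). These 2 of 10 stand beside 9.89% of all genes that did not overlap. Cdkn1a had a log2 fold change of -0.74 (SE 0.28, adjusted p = 0.141), and was called without 5ar3 at passage 4 (-0.96, adjusted p = 0.0267). With library totals in place of TMM the median of all genes moved by 0.12 here and the share of higher genes among calls went from 57.9% to 72.7%, with Cdkn1c still the call.

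EpiSC_AFX and EpiSC_AF, whose labels differ by the letter X in the medium and by the line, differed in 1 of 10 members, while 4.26% of all genes were called, 1.43% higher and 2.83% lower in EpiSC_AFX. Cdkn1c was lower in the 3 EpiSC_AFX libraries than in the 3 of EpiSC_AF, and the log2 fold change was -1.72 (SE 0.37, adjusted p = 0.0125 in edgeR). The call ended without AF32 at passage 13 (-1.44, adjusted p = 0.0663) or AFX6 at passage 8 (-1.66, adjusted p = 0.0720). With Cdkn1c, 4 of 10 members did not overlap between these groups, against 33.9% of all genes. For Ccnd2, Ccnd3 and Cdkn1a, the others of the 4, the log2 fold changes were -0.78 (adjusted p = 0.136), -0.47 (adjusted p = 0.241) and 0.74 (adjusted p = 0.246) in edgeR. When only these 6 libraries were fitted, all 3 were called with Cdkn1c, Ccnd2 at an adjusted p of 0.0392, Ccnd3 at 0.0234 and Cdkn1a at 0.0297, and the share of all genes called rose as well, to 13.6%. Markers of other cell types moved with this comparison and with FS against EpiSC_AF. The 5 endoderm markers summed to 61.0 to 181 CPM in EpiSC_AF, against 1.08 to 39.8 CPM in EpiSC_AFX and 0.574 to 6.64 CPM in FS. The 3 mesoderm markers summed to 34.1 to 137 CPM in EpiSC_AF, against 1.02 to 13.7 CPM in EpiSC_AFX and 1.02 to 3.57 CPM in FS. Of the sum in EpiSC_AF, 33.3 to 136 CPM came from T, while Mesp1 and Tbx6 had at most 0.327 and 0.981 CPM. The 4 trophoblast markers summed to 36.8 to 128 CPM in EpiSC_AF, above the 14.1 to 23.6 CPM of EpiSC_AFX and overlapping with FS, and 35.3 to 126 CPM of that came from Eomes. The part of such RNA in the results was not tested.

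The FS lines 5ar1 and 5ar3 differed in 2 of 10 members, while 3.88% of all genes were called, 1.86% higher and 2.02% lower in 5ar1. Cdkn1c was lower in each 5ar1 library (29.7 to 35.0 CPM) than in any 5ar3 library (61.7 to 91.4 CPM), and the log2 fold change was -1.18 (SE 0.23, adjusted p = 0.00727 in edgeR). Ccnd2 was lower as well, at 99.7, 66.9 and 71.8 CPM in 5ar1 at passages 10, 12 and 14 and 130, 125 and 155 CPM in 5ar3 at passages 4, 5 and 12 (log2 fold change -0.78, SE 0.21, adjusted p = 0.0437). The Ccnd2 call ended without any 1 of 5 libraries, with adjusted p of 0.192 (5ar1 passage 12), 0.186 (5ar1 passage 14), 0.104 (5ar3 passage 12), 0.0875 (5ar3 passage 4) and 0.0747 (5ar3 passage 5). The lines differ in passage, and with passage as a covariate both kept their sign and neither was called: the log2 fold change was -0.87 for Cdkn1c (SE 0.24, adjusted p = 0.0652) and -0.88 for Ccnd2 (SE 0.24, adjusted p = 0.0666). At that setting 2.32% of all genes were called. Cdk6 did not overlap between the lines either, which makes 3 of 10 members against 18.7% of all genes, and had a higher mean in 5ar1 (log2 fold change 0.89, SE 0.33, adjusted p = 0.152), and it was called without 5ar3 at passage 12 (1.47, adjusted p = 0.00887), as was Cdkn1a (-1.10, adjusted p = 0.0153). Rb1 was called lower in 5ar1 without 5ar1 at passage 10 (-0.89, adjusted p = 0.0467). Kcnq1ot1 was lower in 5ar1 than in 5ar3, as Cdkn1c was (edgeR adjusted p = 0.0108), from 3 to 7 counts against 15 to 39, and this call ended without 5ar1 at passage 14 (adjusted p = 0.0699) or 5ar3 at passage 4 (adjusted p = 0.0705).

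The other genes of the pathway were described by lists, chosen with earlier results of these data known. The share of a list called in FS against ES was 41.2% for the S phase genes, 44.4% for the ubiquitin ligase genes, 4 of 8 for the kinases, 54.5% for the G2 and M phase genes, 57.1% for p53 and its targets, 66.7% for the pocket proteins and E2F factors, 71.4% for the Kcnq1 domain and 4 of 4 for the INK4 genes, beside the 62.8% of all genes. Of 8 partner kinases and activators, 2 were higher and 2 lower in FS than in ES (median log2 fold change -0.09, against 0.04 for all genes). Cdk2, the kinase partner of the E-type cyclins, had a mean of 136 CPM in ES (SD 16.03, n = 4), and in FS 61.5 CPM (SD 7.75, n = 6). In edgeR its log2 fold change against ES was -1.15 in FS (SE 0.11, adjusted p = 9.69e-08), -1.001 in EpiSC_AF (SE 0.14, adjusted p = 8.27e-06) and -1.10 in EpiSC_AFX (SE 0.14, adjusted p = 3.00e-06). Cdk2 was the only one of the 8 with a change of that size in each group.

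Of 12 pocket proteins and E2F and DP factors, 5 were higher and 3 lower in FS than in ES (median log2 fold change 0.31). Rbl2, the relative of Rb1 that encodes p130, fell where Rb1 rose: it had 13.1 ± 1.98 CPM in ES (SD, n = 4), against 3.77 ± 1.08 CPM in FS (SD, n = 6), and edgeR gave log2 fold changes of -1.80 in FS (SE 0.24, adjusted p = 4.35e-06), -2.09 in EpiSC_AF (SE 0.30, adjusted p = 1.67e-05) and -2.46 in EpiSC_AFX (SE 0.31, adjusted p = 3.66e-06). E2f7 and E2f6, which encode repressor members of the E2F family, rose in each group, by 1.58 and 0.93 on the log2 scale in FS (SE 0.19 and 0.16, edgeR adjusted p = 1.42e-06 and 8.59e-05).

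The S phase list, 17 genes that E2F factors are known to control, had 0 higher and 7 lower in FS, 0 and 9 in EpiSC_AF, and 0 and 7 in EpiSC_AFX, each against ES, with median log2 fold changes of -0.30, -0.52 and -0.33. Library totals in place of TMM gave 2 higher and 2 lower with a median of 0.06 in FS, where the median of all genes was 0.40, and 0 higher with 4 lower in EpiSC_AF and 3 lower in EpiSC_AFX. Relative to the median of all genes, the median of the list in FS was -0.34 under either scaling. Orc1, a subunit of the origin recognition complex, and Pola1, a subunit of DNA polymerase alpha, had the largest changes in FS, with log2 fold changes of -1.16 (SE 0.11, edgeR adjusted p = 1.10e-07) and -1.01 (SE 0.19, adjusted p = 0.000171). Of 11 genes of G2 and M phase, 6 were higher and 0 lower in FS than in ES (median 0.32), with Aurkb, a mitotic kinase gene, at 0.75 (SE 0.18, adjusted p = 0.00194) and Cdc20, an activator of the anaphase-promoting complex, at 0.67 (SE 0.15, adjusted p = 0.000759). Without the ES library at passage 12 this list had 5 higher and 1 lower, and with library totals 10 higher and 0 lower. Relative to all genes its median in FS was 0.28 with TMM and 0.24 with library totals.

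Among 9 genes of the ubiquitin ligases that act on the members, 3 were higher and 1 lower in FS than in ES, led by Cul4a (log2 fold change 1.02, SE 0.11, edgeR adjusted p = 2.23e-07) and Cks1b, a cofactor in the breakdown of p27 (0.95, SE 0.15, adjusted p = 2.38e-05). Of p53 and its known targets, 14 genes, 3 were higher and 5 lower in FS, 1 and 8 in EpiSC_AF, and 4 and 2 in EpiSC_AFX, each against ES. These are 57.1%, 64.3% and 42.9% of the list, beside 62.8%, 56.7% and 54.7% of all genes. Trp53 itself had 233 ± 45.9 CPM in ES (SD, n = 4), while FS had 147 ± 42.8 CPM (SD, n = 6), EpiSC_AFX 157 ± 17.2 CPM and EpiSC_AF 68.9 ± 14.5 CPM (SD, n = 3 each). Its log2 fold change against ES in edgeR was -0.67 in FS (SE 0.21, adjusted p = 0.00946), -1.76 in EpiSC_AF (SE 0.26, adjusted p = 2.15e-05) and -0.57 in EpiSC_AFX (SE 0.25, adjusted p = 0.0622, not called), and Cdkn1a was lower in all 3. Trp53 was higher in EpiSC_AFX than in EpiSC_AF (log2 fold change 1.19, SE 0.27, edgeR adjusted p = 0.0167), where Cdkn1a had 0.74 and was not called. Trp53 lost this call with library totals in place of TMM (1.15, edgeR adjusted p = 0.0599). It also lost it without AF32 at passage 14 (adjusted p = 0.0582) or 15 (0.0862), and without AFX6 at passage 5 (0.0547) or 8 (0.0774). It was also higher in FS than in EpiSC_AF (1.09, SE 0.24, adjusted p = 0.00464), where Cdkn1a had -0.00 (adjusted p = 1). The part of the Trp53 transcript level in the Cdkn1a levels was not tested.

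**Figure D5:**
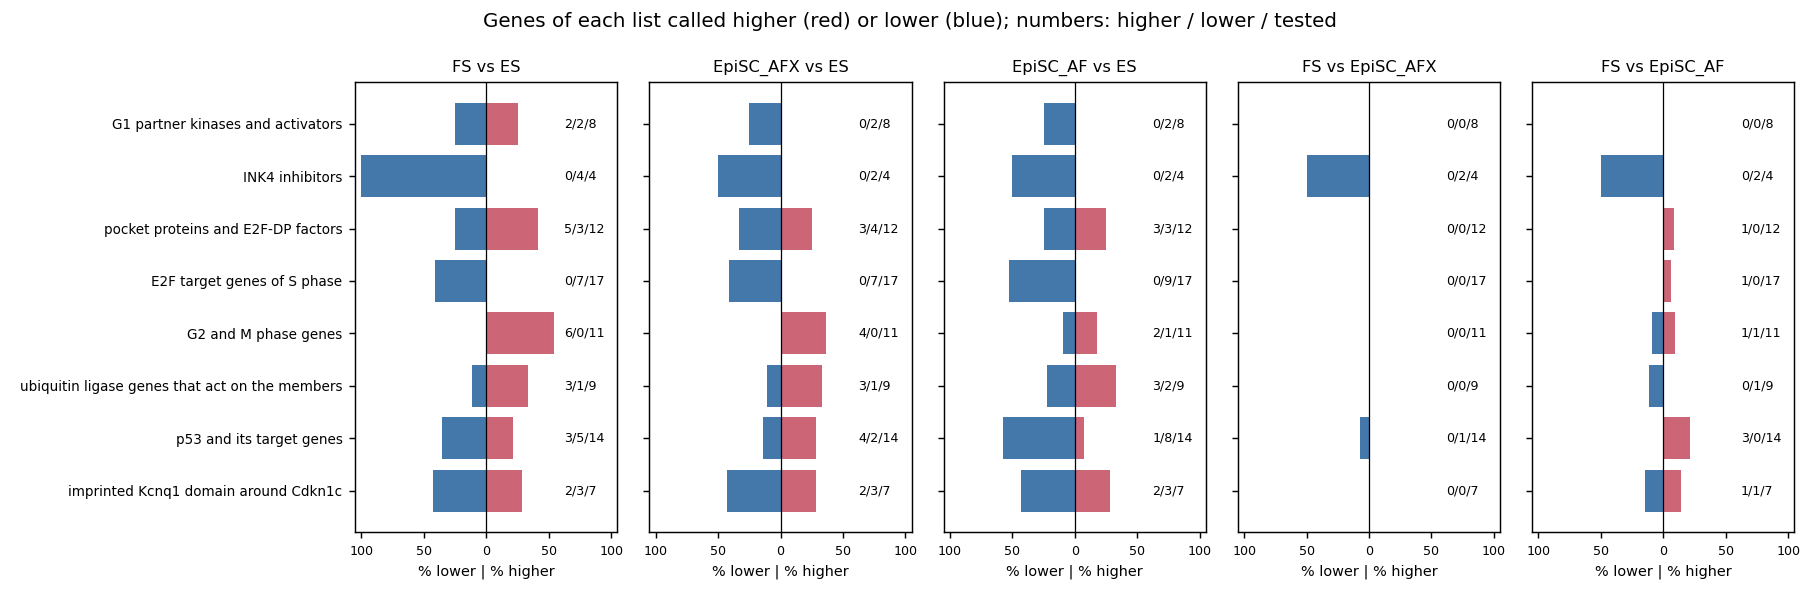
Percent of the tested genes of each list called higher (right) or lower (left) by edgeR adjusted p under 0.05, in the comparisons with ES and of FS with the EpiSC groups, with the numbers higher, lower and tested beside the bars. Against ES the S phase list has calls to the left only (7 of 17 in FS), and the G2 and M phase list has calls to the right only in FS (6 of 11) and EpiSC_AFX.

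The members were last described by how their levels moved over the 16 libraries (log2 CPM with a prior count of 2). These libraries share groups and lines, so the coefficients are descriptions, and 11325 genes with a mean of at least 5 CPM were compared with each member. The genes most like Ccnd2 were Grip1, Rnf217 and Gria3 (Pearson r = 0.998, 0.996 and 0.993), and those most like Cdkn1c were Gm6104, Ptn and Mn1 (r = 0.978, 0.976 and 0.973). Myc was the closest to Cdk6 (r = 0.957), Asf1a to Ccne2 (r = 0.954), Ppil1 to Ccne1 (r = 0.962), Zpr1 to Ccnd1 (r = 0.950), Zbtb24 to Ccnd3 (r = 0.945), A830010M20Rik to Rb1 (r = 0.941) and 2310022A10Rik to Cdkn1a (r = 0.937). Cdkn1b had the weakest match, with Usf2 (r = 0.849). Among the members, Ccnd2 and Cdkn1c had the highest coefficient (r = 0.933), which fell to 0.147 once the mean of each line was subtracted. Within lines, Ccnd1 and Ccne1 moved together (r = 0.816, and 0.733 without subtraction), and Ccne1 and Cdkn1b moved in opposite directions (r = -0.845, and -0.641 without subtraction). So did Ccne2 and Rb1 (r = -0.801 within lines, and -0.03 without subtraction).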

How the data were processed

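RNA of 16 cell culture samples was sequenced in bulk. The authors deposited raw counts per gene. Per the submitters' processing notes, reads were handled with Trim Galore, TopHat2 2.1.0 and featureCounts 1.5.0 on mm10, and per the labels' protocols the library kit was directional. The annotation and the strand setting are not given in the sources used here, so overlapping and antisense genes are uncertain: 8 of the 10 members, all but Ccne1 and Cdkn1b, have an exon that overlaps an exon of a gene on the opposite strand in GENCODE M21. A further 6 columns matched no sample and were not used, and 2003 of 34042 genes were 0 in all 16 libraries.

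Tests used edgeR 4.0.16 under R 4.3.3 (filterByExpr, TMM, robust quasi-likelihood fit of a mean per group to all 16 libraries, or a mean per line for the FS lines). P-values were adjusted by the Benjamini-Hochberg method over 18555 genes, and genes were called under 0.05. The standard error is the log2 fold change divided by the root of the F statistic. No pair of libraries of one line agreed within sampling noise. Lengths are of merged exons in GENCODE M21 on GRCm38. Promoter windows are from RefSeq on GRCm38.p6, and 5 members had an entry. The procedure was tested on simulated counts.

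All 10 members are named. List genes written out are among the 3 with the largest change per list and comparison, besides Cdk4 and Trp53, which were given after their values were seen, as were the choices among the eligible genes. The pattern genes are the closest by Pearson correlation. The members and the lists were chosen with earlier results of these data known. Replicates were numbered by accession, so numbers pair no samples. Alternatives were DESeq2 1.42.0 (size factors, Wald test), library totals, other low-count filters, leaving out mitochondrial rRNA genes, passage as a covariate, a fit of only the groups compared, single FS lines, and leaving out each library.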

Additional observations from a re-analysis of the deposited data

Results flagged for a closer look

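In ES, the library at passage 12 lay apart for Cdk6, at 37.5 CPM against 79.1 to 85.2 CPM in the other 3. The gap to the nearest library was 0.871 of the range over the group. The same library lay apart for Rb1, at 5.94 CPM against 8.70 to 8.85 CPM, with a gap of 0.949 of the range. Chance puts about 1 in 20 groups past this limit, and 20 pairs of a member and a group were looked at. This library also had 38.1% of its counts on mt-Rnr2, and the part of that share in these levels was not tested.

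The FS lines differed in their distance from ES for 2 members, by the test of the difference between the lines in edgeR. Ccnd2 had a log2 fold change lower in 5ar1 than in 5ar3 (-0.78, adjusted p = 0.0437, no overlap between the 3 libraries of each). For Cdkn1c the difference was -1.18 (adjusted p = 0.00727, no overlap). Passage differs between the lines. With passage as a covariate the differences were -0.88 for Ccnd2 (adjusted p = 0.0666) and -0.87 for Cdkn1c (adjusted p = 0.0652), and neither was called.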

How the results depend on the processing

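Of the 70 comparisons of a member, 22 were called with the settings of the report, 36 under at least 1 setting and 34 under none. No called member changed sign, while 23 of the 34 comparisons called under no setting changed sign under at least 1 setting. The log2 fold change of Ccnd2 in FS against EpiSC_AFX, 0.40 and not called, turned to -0.046 with 5ar1 as the only FS line. With 5ar3 as the only FS line it was called higher (0.75, edgeR adjusted p = 0.0271). Members called between the FS lines, 2 in the report, were 1 with library totals, 1 with only the FS libraries and 0 with passage as a covariate, and 1 to 3 when each library was left out. Over all genes, 720 in the report, library totals called 278 higher and 222 lower. Only the FS libraries gave 179 and passage as a covariate 431. In FS against EpiSC_AFX, 1 in the report (Cdkn1c), Cdk6 was also called with passage as a covariate (log2 fold change -1.03, edgeR adjusted p = 0.0407). Cdkn1a was also called with only 5ar1 (-1.21, adjusted p = 0.00510), and 3 members were called with only 5ar3. Leaving out each library gave 1 to 2. With only 5ar3 the calls over all genes rose as well, from 927 to 1765. In EpiSC_AFX against EpiSC_AF, also 1, members called were 4 with only these groups fitted, and 0 to 1 when each library was left out. In FS against EpiSC_AF, 0 in the report, Ccnd2 was called with only 5ar1 (-0.83, edgeR adjusted p = 0.0158). Where no number over all genes is given, the member count is not read as a result about the members. The cause of these changes was not tested.

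Over all genes, the DESeq2 Wald test called 1639 in FS against EpiSC_AFX (927 in the report), 1383 in EpiSC_AFX against EpiSC_AF (791) and 1292 between the FS lines (720). With only the groups compared these counts were 557, 2276 and 179. Passage as a covariate gave 431 between the lines, and 5ar3 as the only FS line gave 1765 in FS against EpiSC_AFX. Leaving out each library gave 380 to 1221 in FS against EpiSC_AFX, lowest without AFX6 at passage 8. It gave 351 to 924 in EpiSC_AFX against EpiSC_AF, lowest without AFX6 at passage 5, and 289 to 1567 between the lines, lowest without 5ar1 at passage 14 and highest without 5ar1 at passage 10. In FS against EpiSC_AF (3089) it gave 1799 to 3464, lowest without AF32 at passage 13. Among 87 comparisons of list genes 110 of 1468 values lost their call and 0 changed sign. No paired analysis was possible because replicate numbers follow accession order. Cdkn2a in FS and Kcnq1ot1 outside ES rest on few counts, which limits their size.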
